A study of Nannospalax ehrenbergi and Mus musculus with 14 samples.

Results

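*Spalax*, the blind mole rat, is a long-lived rodent in which tumors are rarely seen. In the study, 3-methylcholanthrene (3MCA), a chemical carcinogen, was injected on one side of the neck, and the lesions that grew were sampled from the injected side (IS). The microRNAs of 2 granulomas, from animals Sp600 and Sp976, were compared here with those of 2 fibrosarcomas, from animals Sp2230 and Sp2240, lesion with lesion (the labels write the animals as spalax_600 and so on). These 4 libraries are 4 of the 14 microRNA libraries of the series, and all 1326 microRNA names of their table were used. The granulomas, benign fibrotic lesions of chronic inflammation, came from females sampled 14 (animal Sp600) and 16 months (animal Sp976) after the injection. The fibrosarcomas, malignant connective tissue tumors that were also inflamed, came from a male sampled at 30 months (animal Sp2230) and a female sampled at 18 months (animal Sp2240). Every animal received 3MCA, so there is no lesion without it, and every library is 1 animal, whose age the labels do not give. Both granulomas were taken earlier than both fibrosarcomas, and the only male bore a fibrosarcoma, so lesion type and time after injection cannot be told apart, and sex only in part. The uninjected side (UIS) of the same 4 animals, muscle from the untreated side of the neck, was used as a reference for the level of each microRNA.

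MicroRNAs are short RNAs cut from a hairpin, the 5p product from its 5' side and the 3p product from its 3' side, and they lower the output of messenger RNAs that carry a matching site. Many are read in clusters from 1 long transcript, so that neighbors tend to move together. A long series of microRNA genes in rodents lies in the *Dlk1*-*Dio3* region, an imprinted stretch whose noncoding RNAs *Meg3*, *Rian* and *Mirg* and their microRNAs are read from the maternal chromosome only. These microRNAs are abundant in the embryo, placenta and brain, and low in most adult tissues.

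The lesion libraries held 2034574 to 7991923 reads on microRNAs, and the UIS libraries 11557482 to 13046355. A normalized count below is a deposited value, that is, reads divided by a size factor, and 1 read is worth between 0.544 and 2.17 normalized counts in the lesions. The 10 leading microRNAs took 55.4% to 59.0% of the lesion reads. The labels call the tissue muscle, but the 17 names of a list of skeletal muscle microRNAs took only 0.165% and 0.00959% of the reads in granulomas Sp600 and Sp976, and 0.0132% and 0.0112% in fibrosarcomas Sp2230 and Sp2240, against 35.2% to 37.3% in the UIS, and 7 of the 17 had no read in any lesion. Comparisons with the UIS depend on the scaling, since the median difference between lesion and UIS over the 340 tested microRNAs outside the *Dlk1*-*Dio3* region was -0.06 to 0.47 on the log2 scale with the deposited size factors but 1.73 to 2.09 by share of reads. In bulk tissue, fewer cells of a type and less RNA per cell cannot be told apart.

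The hairpins below are those that carry the findings: the *Dlk1*-*Dio3* microRNAs with the most reads or the largest difference in the proximal and the distal part of the region, and a neighboring pair from a second imprinted locus. They are the mouse sequences of GENCODE M21 (GRCm38), 5' to 3', with T for U. Capitals mark the side of the terminal loop, as folded by RNAfold, from which the measured microRNA is cut.

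miR-370-3p, chr12:109618258-109618336, plus strand: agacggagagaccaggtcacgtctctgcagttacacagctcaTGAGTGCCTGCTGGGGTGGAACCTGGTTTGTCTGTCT
miR-127-3p, chr12:109592846-109592915, plus strand: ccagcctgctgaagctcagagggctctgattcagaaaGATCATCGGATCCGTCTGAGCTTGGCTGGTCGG
miR-411-5p, chr12:109710175-109710256, plus strand: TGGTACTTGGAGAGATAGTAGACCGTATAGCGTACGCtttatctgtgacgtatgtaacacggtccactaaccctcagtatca
miR-485-5p, chr12:109734902-109734974, plus strand: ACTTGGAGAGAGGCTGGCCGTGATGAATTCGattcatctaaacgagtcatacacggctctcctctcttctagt
miR-296-3p, chr2:174267047-174267125, minus strand: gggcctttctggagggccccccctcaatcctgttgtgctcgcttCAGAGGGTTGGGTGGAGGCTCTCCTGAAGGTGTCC
miR-298-5p, chr2:174267504-174267585, minus strand: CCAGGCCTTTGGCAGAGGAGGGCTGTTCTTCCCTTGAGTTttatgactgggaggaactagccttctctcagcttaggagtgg

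The granulomas differed from the fibrosarcomas mainly in the microRNAs of the *Dlk1*-*Dio3* region, which were higher in granuloma by a median log2 difference of 4.76. Of 401 microRNAs tested, 58 (14.5%) were higher in granuloma and 0 (0%) were higher in fibrosarcoma at an adjusted p under 0.05. Of these 58, 54 belong to the region, 3 are the arms of miR-296 and miR-298, and the last is miR-199a-5p. The test was limma on log2(normalized count + 1) for microRNAs at 10 or more in at least 2 of the 4 lesions, with Benjamini-Hochberg adjustment, and differences below are granuloma minus fibrosarcoma on this scale. At an unadjusted p under 0.05 it gave 71 higher in granuloma and 18 higher in fibrosarcoma. On the recovered reads, edgeR's quasi-likelihood test called 62 higher in granuloma and 0 higher in fibrosarcoma, and DESeq2 70 and 2 (miR-19a-3p and miR-33-5p). The median of all 401 differences was -0.29 with the deposited scaling, -0.31 with total reads and -0.14 with size factors of the 4 lesions, and the values of single microRNAs are to be read against this shift. The count rests on both fibrosarcomas: without animal Sp2230 or without animal Sp2240 there were 0 calls, with 93 and 94 microRNAs at an unadjusted p under 0.05, and without granuloma Sp600 or Sp976 there were 20 and 37. The remaining single lesion is then assumed to vary like the other pair.

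**Figure D1:**
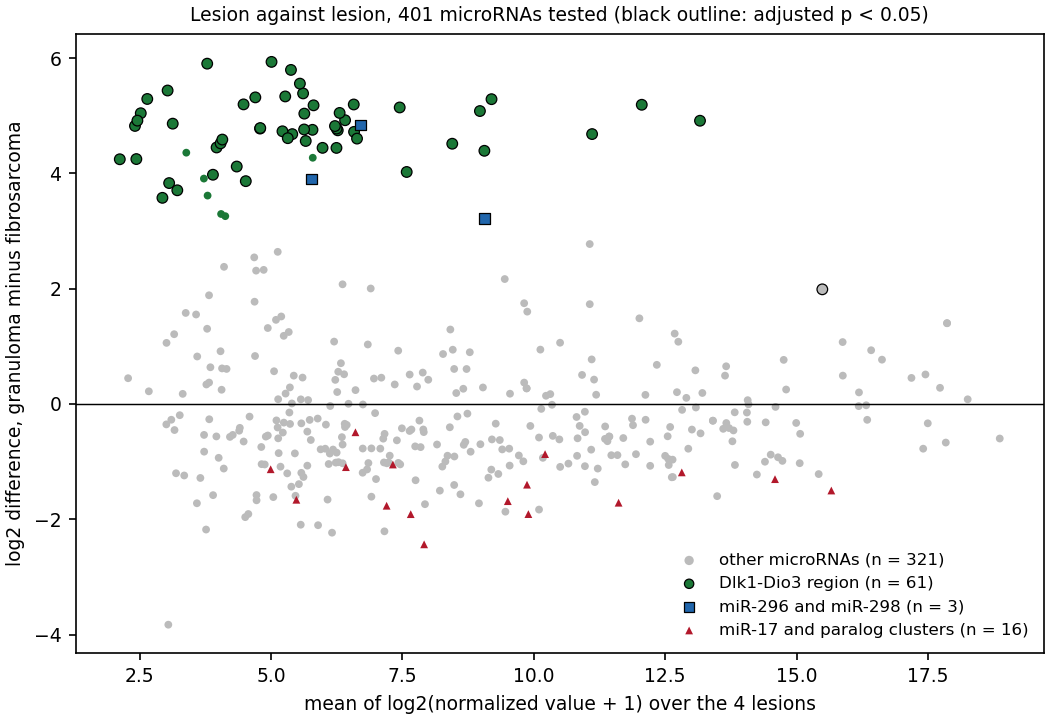
Each point is 1 of the 401 tested microRNAs, with the mean of log2(normalized count + 1) over the 4 lesions on the x axis and the log2 difference, granuloma minus fibrosarcoma, on the y axis; a black outline marks an adjusted p under 0.05. The 61 microRNAs of the *Dlk1*-*Dio3* region lie between 3.26 and 5.94 at all levels, with miR-296 and miR-298 beside them, and the 16 members of the miR-17 and paralog clusters lie below 0.

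The *Dlk1*-*Dio3* region took 3.76% of the microRNA reads in granuloma Sp600 and 1.62% in granuloma Sp976, against 0.0488% in fibrosarcoma Sp2230 and 0.136% in fibrosarcoma Sp2240. In the UIS of the same animals it took 0.136%, 0.196%, 0.083% and 0.117%. The granulomas were thus far above all other libraries, while fibrosarcoma Sp2230 lay below the UIS range and fibrosarcoma Sp2240 within it. With 2 lesions against 2, an exact permutation test of such a share cannot give a two-sided p below 0.333.

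**Figure D2:**
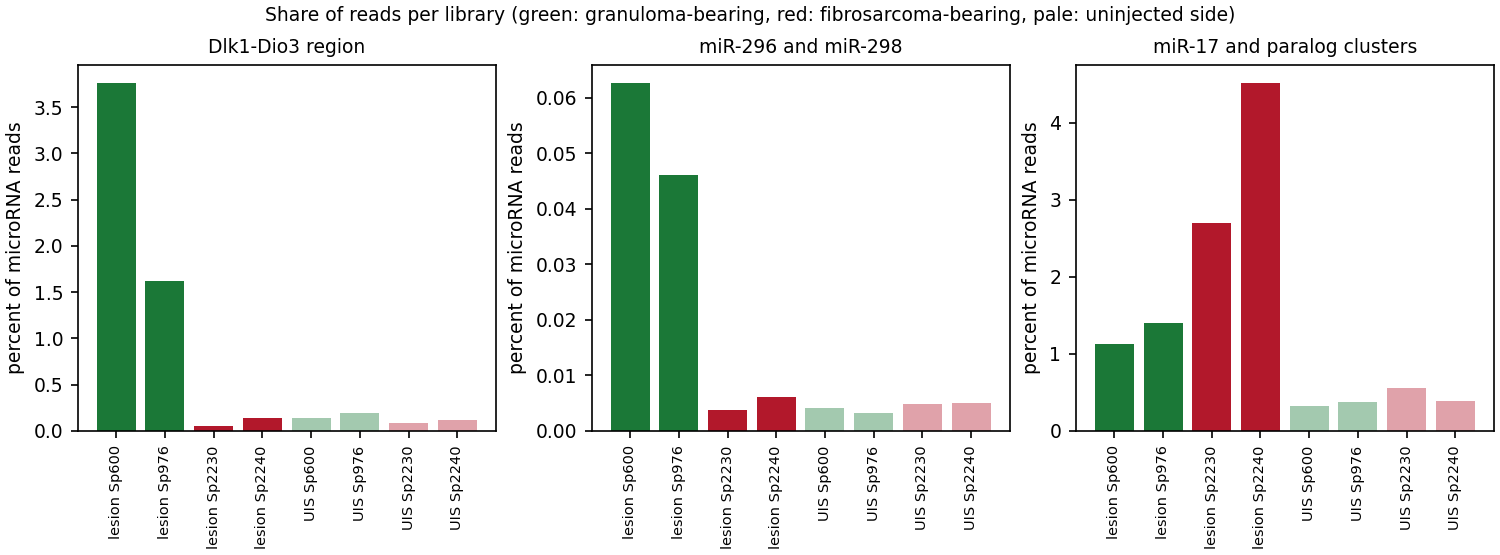
Bars give the percent of microRNA reads in each of the 8 libraries for the *Dlk1*-*Dio3* region, for miR-296 and miR-298, and for the miR-17 and paralog clusters; green bars are granuloma-bearing animals, red bars fibrosarcoma-bearing animals, and pale bars the UIS. The region took 3.76% and 1.62% in the granulomas and at most 0.196% elsewhere, and the miR-17 clusters took 2.69% and 4.52% in the fibrosarcomas.

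In mouse, the 51 microRNA genes of the region span chr12:109563692-109747960, 184269 bp, on the plus strand except *Mir299b*, and 3 of the names have no gene in the annotation. Of 105 names, 85 had a read in a lesion, 61 were tested and 54 passed the test. Of the 51 genes, 38 had a tested arm and 35 an arm past the threshold. All 61 tested names were higher in both granulomas than in both fibrosarcomas, a pattern that 102 of all 401 (25.4%) showed, and their median difference was 4.76 against -0.29 for all microRNAs tested. The low-count filter bears on these counts, since 29 of the 61 reached 10 normalized counts only in granulomas and so had to differ. Chosen instead by a level of 10 in at least 2 UIS libraries, which does not use the lesions, 45 names of the region remained, of which 44 were higher in both granulomas than in both fibrosarcomas, with a median of 4.78, against 83 of 387 over all microRNAs so chosen. Among the 85 names with a read, miR-380-3p and miR-541-5p were the 2 whose mean was higher in fibrosarcoma, and neither exceeded 6.51 normalized counts in any lesion.

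The proximal microRNAs, which include those antisense to the retrotransposon-like gene *Rtl1* and those in *Rian*, all 17 passed the test, with a median of 5.04 and a range of 3.58 to 5.94. MiR-127-3p, whose hairpin lies antisense to *Rtl1* and which pairs fully with its messenger RNA, carried the most reads of the region. It stood at 75285 and 33693 normalized counts in granulomas Sp600 and Sp976 and at 995 and 2801 in fibrosarcomas Sp2230 and Sp2240, a log2 difference of 4.91 (standard error 0.71, limma's adjusted p = 0.0172). Its UIS values were 10264 and 12304 in the granuloma-bearing and 5460 and 7559 in the fibrosarcoma-bearing animals. The UIS lay between the lesion types on this scale, but by share of reads fibrosarcoma Sp2240 (0.0635%) was above its own UIS (0.0538%). MiR-370-3p, whose gene lies within *Rian*, had the largest difference with 1 added before the log, 5.94 (standard error 0.89, limma's adjusted p = 0.0172). It stood at 464 and 136 normalized counts in the granulomas and 2.18 and 4.34 in the fibrosarcomas, so its rank rests on few reads. With 0.1 added instead its difference was 6.30, below the 8.58 of miR-3072-3p. With 10 added it was 4.31, below the 4.91 of miR-127-3p. MiR-673-3p, at 155 and 72.2 against 2.18 and 0, and miR-337-3p, at 447 and 214 against 1.63 and 10.8, followed with differences of 5.90 and 5.80. MiR-341-5p stood at 71.1 and 39.3 normalized counts in the granulomas and at 0.544 and 0 in the fibrosarcomas, the first of which is 1 read. In each of these the granulomas and fibrosarcomas did not overlap, which the low-count filter fixed in advance for miR-370-3p, miR-673-3p and miR-341-5p. The smallest difference of the proximal set was 3.58 in miR-431-3p (limma's adjusted p = 0.0408).

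The distal microRNAs lie between *Rian* and the end of *Mirg*. Of the 44 tested, 37 passed the test, with a median over all 44 of 4.70 and a range of 3.26 to 5.56. MiR-411-5p, the most abundant, stood at 34767 and 19022 normalized counts in granulomas Sp600 and Sp976 and at 418 and 1183 in fibrosarcomas Sp2230 and Sp2240, a difference of 5.19 (standard error 0.70, limma's adjusted p = 0.0172). Its UIS values, 3993 and 4941 in the granuloma-bearing and 1728 and 3114 in the fibrosarcoma-bearing animals, again lay between with the deposited scaling, while by share of reads fibrosarcoma Sp2240 (0.0268%) was above its own UIS (0.0222%). MiR-381-3p stood at 20201 and 6210 in the granulomas and 262 and 723 in the fibrosarcomas. Here the UIS of animal Sp976, at 8569, exceeded its granuloma with the deposited scaling, but not by share of reads (0.0545% against 0.139%). MiR-409-3p stood at 5538 and 2426 in the granulomas and 61.0 and 141 in the fibrosarcomas, with 177 and 142 in the UIS of the granuloma-bearing animals and 128 and 166 in that of the fibrosarcoma-bearing ones. Each granuloma was thus above its own UIS. Each fibrosarcoma was under it with the deposited scaling and above it by share of reads (0.00140% against 0.000900% in Sp2230 and 0.00319% against 0.00118% in Sp2240). MiR-485-5p had the largest distal difference with 1 added before the log, 5.56 (standard error 0.80, limma's adjusted p = 0.0172), at 456 and 225 against 3.81 and 8.68. MiR-379-5p, which opens the distal series, stood at 655 and 333 against 12.0 and 17.4. MiR-134-5p, known from neuronal dendrites, stood at 1000 and 332 against 8.17 and 26. MiR-154-5p stood at 357 and 167 against 1.63 and 13.0. MiR-3072-3p, at 49.9 and 29.1 in the granulomas, had no read in either fibrosarcoma, and was at least 11.7-fold higher in granuloma against a floor of 3 reads in each fibrosarcoma library. Of the 61 tested, 5 had no read in either fibrosarcoma, and with these at their bounds the median of the region was 4.68.

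The 7 tested members that missed the threshold were all distal: miR-382-3p, miR-494-3p, miR-539-5p, miR-539-3p, miR-668-3p, miR-1193-3p and miR-1197-3p. Their differences ran from 3.26 to 5.32 with standard errors of 0.96 to 1.43 and limma's adjusted p of 0.0546 to 0.102, while the 54 that passed had standard errors of 0.70 to 1.11. MiR-382-3p, for example, stood at 287 and 88.7 in the granulomas and at 0 and 15.2 in the fibrosarcomas. These 7 also lay higher in both granulomas than in both fibrosarcomas.

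**Figure D3:**
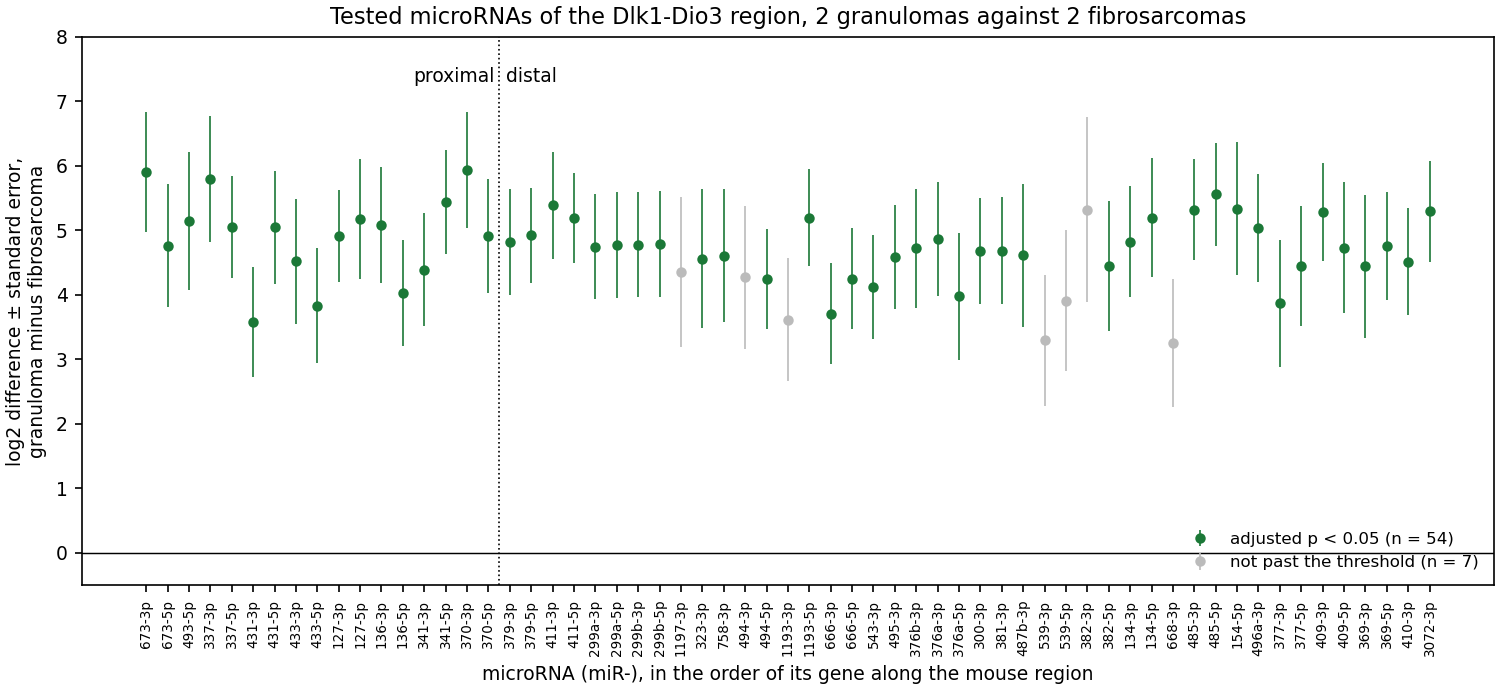
Points give the log2 difference of the 61 tested microRNAs of the region, with bars of 1 standard error, in the order of their genes along the mouse chromosome; green points passed the test and the dotted line parts the proximal from the distal microRNAs. The differences stay between 3.26 and 5.94 from end to end.

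The abundant miR-127-3p, miR-411-5p and miR-381-3p kept roughly similar proportions of the region's reads between the lesion types while the region's sum changed. Over all 61 tested members the differences ran from 3.26 to 5.94, so proportions of other members shifted more. MiR-127-3p made up 44.9% and 46.3% of the region's reads in granulomas Sp600 and Sp976 and 46.9% and 46.6% in fibrosarcomas Sp2230 and Sp2240. MiR-411-5p made up 20.7% and 26.1% in the granulomas and 19.7% in both fibrosarcomas, and miR-381-3p 12.0% and 8.5% in the granulomas and 12.3% and 12.0% in the fibrosarcomas. The region's total was 134483 and 57428 reads in the granulomas and 3899 and 2768 in the fibrosarcomas. For the 23 hairpins with both arms tested, the differences of the 2 arms lay a median of 0.58 apart and at most 1.58, and in 19 both arms passed the test. MiR-299a and miR-299b are read from opposite strands of 1 locus and have nearly the same values, so their counts may hold each other's reads.

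The region also varied within each lesion type. Granuloma Sp600 was above granuloma Sp976 in 60 of the 61 tested members, with a median log2 difference of 1.21, and fibrosarcoma Sp2240 was above fibrosarcoma Sp2230 in 49, also with a median of 1.21. Outside the region these medians were -0.01 and 0.05 over 340 microRNAs. Both granulomas nevertheless stayed above both fibrosarcomas in all 61, though the low-count filter fixed this in advance for 29 of them. The earlier sample was the higher in each pair, at 14 against 16 months and 18 against 30 months, and any part of time in this was not tested.

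Against the UIS of the same animal, the median of the 61 members was higher by 3.48 in granuloma Sp600 and by 1.81 in granuloma Sp976 on the log2 scale, and was -1.75 in fibrosarcoma Sp2230 and -1.05 in fibrosarcoma Sp2240. The lesion was above its UIS in 61 and 55 of the 61 members in the granulomas and in 3 and 10 in the fibrosarcomas. By share of reads, the medians were 5.27 and 3.57 in the granulomas and -0.48 and 0.27 in the fibrosarcomas, with the lesion above its UIS in all 61 members in both granulomas and in 23 and 35 in fibrosarcomas Sp2230 and Sp2240. The granuloma medians were thus above 0 on both scales, and the direction of the fibrosarcomas against muscle depends on the scaling. Between the UIS of the 2 kinds of animals the median difference of the region was 0.65, in the direction of the lesions but far smaller.

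A shared stretch was looked for among the hairpins of the region with a tested arm. The most frequent string of 7 letters in these 38 mouse hairpins was TTCGCTT, on the transcribed strand, which 9 of them hold (23.7%), against 13 of all 2201 microRNA hairpins of GENCODE M21 (0.591%). Of these 13, 10 lie in the region, so that outside it 3 of 2150 hairpins hold the string. The string was found by searching these hairpins and carries no test, and the next most frequent string was held by 7 of them. In all 9 it lies at 40.2% to 42.6% of the hairpin's length, towards the loop. The 12 tested arms of these 9 hairpins had a median difference of 4.54, and 11 passed the test, against a median of 4.79 for the other 49 arms, of which 43 passed. Of these 9 hairpins 4 are shown, with the string in capitals, to let the likeness of neighbors in sequence be seen beside the likeness of their differences.

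Mir154, chr12:109738433-109738498, plus strand: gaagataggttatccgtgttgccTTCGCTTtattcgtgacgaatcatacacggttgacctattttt
Mir377, chr12:109740510-109740577, plus strand: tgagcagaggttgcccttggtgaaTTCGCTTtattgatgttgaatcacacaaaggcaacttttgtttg
Mir382, chr12:109733771-109733846, plus strand: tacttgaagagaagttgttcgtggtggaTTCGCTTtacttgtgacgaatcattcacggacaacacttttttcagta
Mir410, chr12:109743715-109743795, plus strand: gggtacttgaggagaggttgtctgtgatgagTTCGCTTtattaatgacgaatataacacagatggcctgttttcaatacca

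A second imprinted locus showed the same direction. *Mir296* and *Mir298* lie 378 bp apart on the minus strand of mouse chromosome 2, outside any annotated gene but next to *Nespas* and *Gnas*, an imprinted locus that encodes the stimulatory G protein alpha subunit. All 3 of their tested arms passed the test, with limma p before adjustment of 0.000317 (miR-296-3p), 0.00227 (miR-296-5p) and 0.00259 (miR-298-5p). The adjustment ran over all 401 microRNAs, 61 of them from the *Dlk1*-*Dio3* region, whose many small p-values ease the threshold for the rest. An adjustment without the region was not made. MiR-296-3p stood at 619 and 499 normalized counts in granulomas Sp600 and Sp976 and at 17.4 and 19.5 in fibrosarcomas Sp2230 and Sp2240, a difference of 4.84 (standard error 0.67, limma's adjusted p = 0.0172). MiR-296-5p stood at 270 and 165 against 19.6 and 8.68, a difference of 3.91 (standard error 0.78, limma's adjusted p = 0.0228, without the filter 0.0525). MiR-298-5p stood at 1908 and 1401 against 127 and 241, a difference of 3.22 (standard error 0.66, limma's adjusted p = 0.0242). Under the deposited scaling the UIS lay between the lesion types in all 3, and the median of the 3 against the UIS of the same animal was 1.96 and 1.98 in the granulomas and -1.97 and -1.70 in the fibrosarcomas. By share of reads these medians were 3.84 and 3.79 in the granulomas and -0.27 and -0.08 in the fibrosarcomas, and miR-298-5p in fibrosarcoma Sp2240 was above its UIS (0.00546% against 0.00348%). Unlike the *Dlk1*-*Dio3* region, the 2 granulomas had close values of this pair. The microRNAs of the imprinted *H19* and *Igf2* genes could not be tested, as 1 of their 4 names had any read in a lesion. Of the 74 names of the *Sfmbt2* intron cluster, 4 had a read in a lesion and 1 was tested. This was miR-466i-5p, which went the other way, higher in both fibrosarcomas than in both granulomas (difference -1.30, limma's adjusted p = 0.319).

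**Figure D4:**
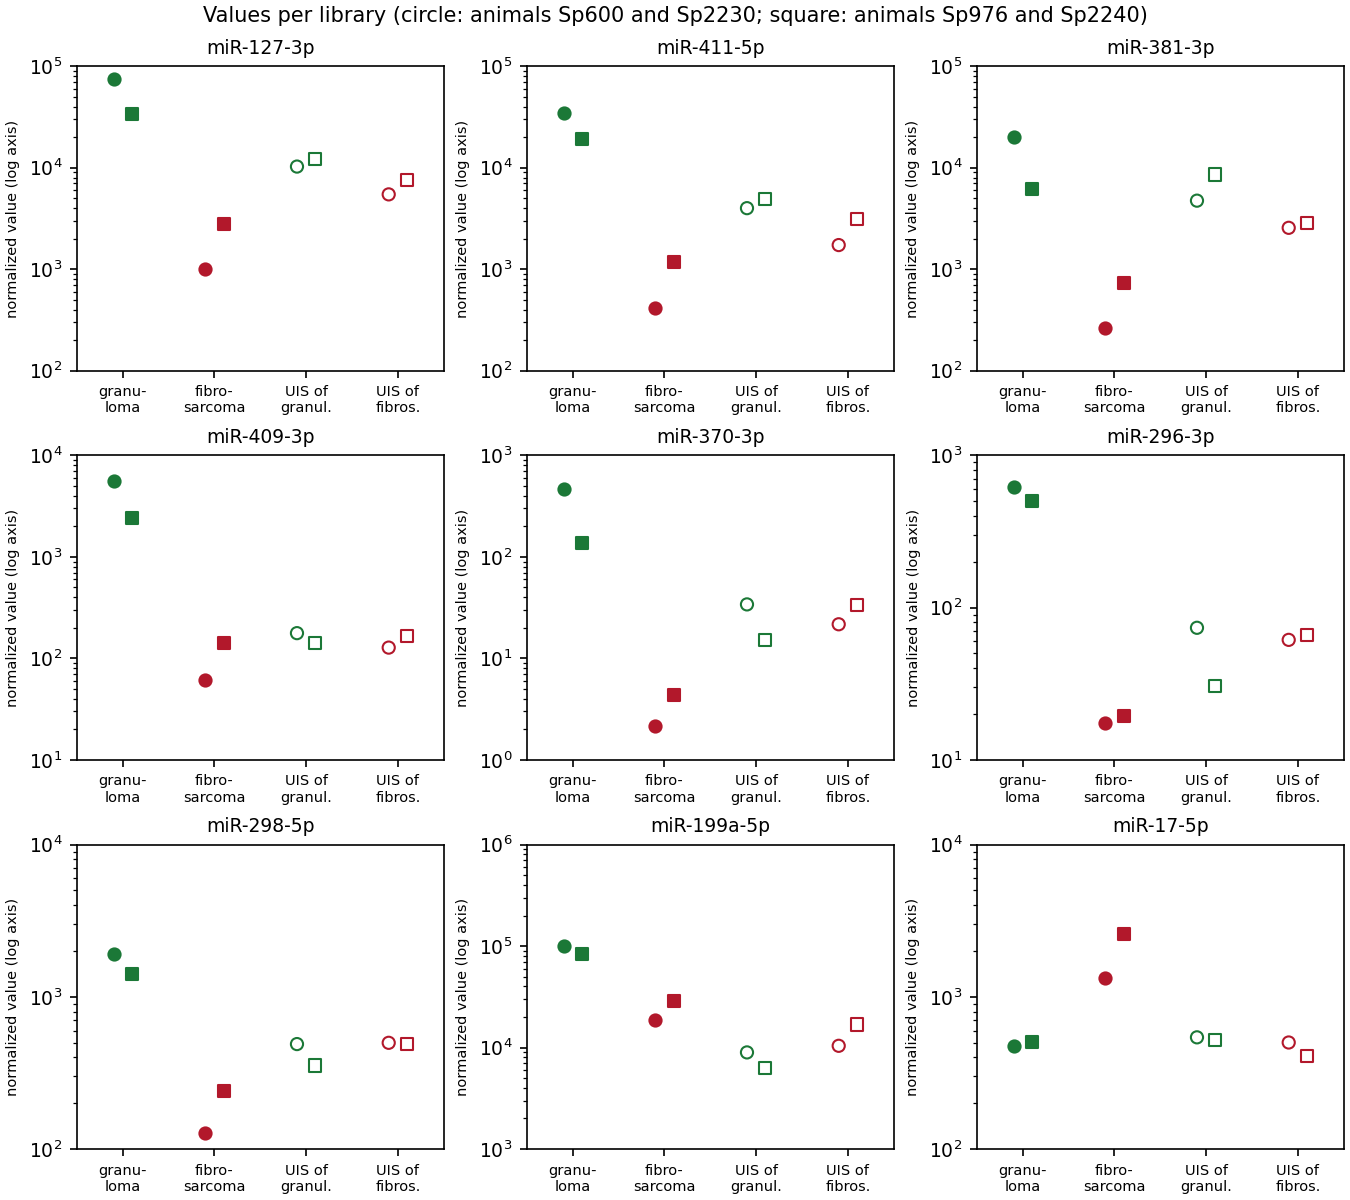
Each panel gives 1 microRNA in all 8 libraries, as normalized counts on a log axis; filled symbols are lesions, open symbols the UIS with the deposited scaling, green granuloma-bearing and red fibrosarcoma-bearing animals. In the first 7 panels both granulomas lie above both fibrosarcomas by log2 differences of 3.22 to 5.94, and in miR-17-5p both fibrosarcomas lie above both granulomas.

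MiR-199a-5p was the remaining call, with a limma p of 0.00367 before the adjustment, which again included the *Dlk1*-*Dio3* region. It is cut, like miR-214, from the noncoding RNA *Dnm3os* of mesenchymal cells, and has a second hairpin antisense to *Dnm2*. It stood at 99726 and 84353 normalized counts in granulomas Sp600 and Sp976 and at 18726 and 28506 in fibrosarcomas Sp2230 and Sp2240, a difference of 1.99 (standard error 0.44, limma's adjusted p = 0.0300), and at 6329 to 16868 in the UIS. Without the filter on low counts it missed the threshold (adjusted p = 0.0594). Both lesion types were thus above the UIS here. The opposite arm, listed under miR-199a-3p and miR-199b-3p with the same values, stood at 370188 and 405894 against 209459 and 102798 (adjusted p = 0.114), and miR-214-3p at 7239 and 6579 against 2839 and 2137 (adjusted p = 0.144). In both, the lesion types did not overlap, but the test was not passed. Of the 14 tested members of the fibroblast and matrix list, miR-199a-5p was the only 1 that passed, 6 were positive and 8 negative, and the median was -0.26, close to that of all microRNAs. The list took 28.7% and 30.4% of the reads in the granulomas and 25.5% and 19.5% in the fibrosarcomas, against 1.43% to 2.87% in the UIS.

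No microRNA passed the test for a higher level in fibrosarcoma, although 115 of 401 (28.7%) were higher in both fibrosarcomas than in both granulomas. With 2 lesions of each type, differences of the size given below can go uncalled, so the lack of calls does not show equal levels. Outside the *Dlk1*-*Dio3* region 228 of the 340 tested microRNAs were negative, with a median of -0.44. The counts and medians of the lists below are to be read against this. The miR-17/miR-92 cluster and its paralogs, which MYC switches on in dividing cells, had 16 tested members, all negative, and 14 of them did not overlap. Their median was -1.45 and their range -2.44 to -0.49. Together they took 1.13% and 1.39% of the reads in the granulomas, 2.69% and 4.52% in the fibrosarcomas and 0.325% to 0.551% in the UIS. MiR-17-5p stood at 474 and 508 normalized counts in the granulomas and 1324 and 2580 in the fibrosarcomas (difference -1.91, standard error 0.63, limma's adjusted p = 0.128). MiR-92a-3p, the most abundant, stood at 27200 and 34897 against 61662 and 123435 (difference -1.50, adjusted p = 0.128), and miR-19a-3p, with the largest difference, at 160 and 65.9 against 275 and 1139 (difference -2.44, adjusted p = 0.187). MiR-25-3p, of a paralog cluster, stood at 13815 and 17829 against 35058 and 42859 (difference -1.30, adjusted p = 0.136). Fibrosarcoma Sp2240 was the higher of its pair in 13 of the 16 members. Without it 15 of the 16 were negative, with a median of -1.10.

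Other lists also lay on the side of fibrosarcoma without a member that passed, as did most microRNAs outside the *Dlk1*-*Dio3* region (228 of 340 negative, median -0.44). Of these 340, 115 were higher in both fibrosarcomas than in both granulomas. All 8 tested members of miR-26 and miR-101, which lower the Polycomb enzyme EZH2, were higher in both fibrosarcomas, with a median of -0.72. MiR-101a-5p, with the largest difference of this list, stood at 8.74 and 12.7 against 49.5 and 39.1 (difference -1.96, adjusted p = 0.179). All 8 tested members of the miR-15/miR-16 family, which slow the cell cycle, were negative, with a median of -0.74, but without granuloma Sp976 or without fibrosarcoma Sp2230 only 5 were. All 5 of miR-34/miR-449, of which miR-34a is switched on by p53, were negative, with a median of -1.87, but only 2 did not overlap. MiR-34a-5p stood at 162 and 831 in the granulomas and 2150 and 842 in the fibrosarcomas, so that granuloma Sp976 and fibrosarcoma Sp2240 were nearly equal.

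The single microRNA with the largest difference towards fibrosarcoma was miR-184-3p, at 0 and 3.8 normalized counts in the granulomas and 46.3 and 19.5 in the fibrosarcomas (difference -3.83, standard error 1.05, limma's adjusted p = 0.0648). With 10 added instead of 1 before the log its difference was -1.79, smaller in size than the -2.33 of miR-19a-3p. MiR-33-5p, which lies in an intron of the sterol regulator *Srebf2*, stood at 30.0 and 34.2 against 228 and 104 (difference -2.23, adjusted p = 0.133). MiR-301a-3p stood at 804 and 419 against 2549 and 1682 (difference -1.83, adjusted p = 0.150), miR-361-5p at 139 and 127 against 462 and 427 (difference -1.74, adjusted p = 0.162), and miR-30e-5p at 32950 and 25150 against 60527 and 73926 (difference -1.22, adjusted p = 0.144). In each of these the lesion types did not overlap, which the low-count filter fixed in advance for miR-184-3p. When the 4 UIS libraries entered the fit and shared in the estimate of the spread, 15 microRNAs passed in the direction of fibrosarcoma, among them miR-17-5p (adjusted p = 0.0216), miR-92a-3p (0.0358), miR-361-5p (0.0144) and miR-184-3p (0.0467), beside 69 in the direction of granuloma.

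**Figure D5:**
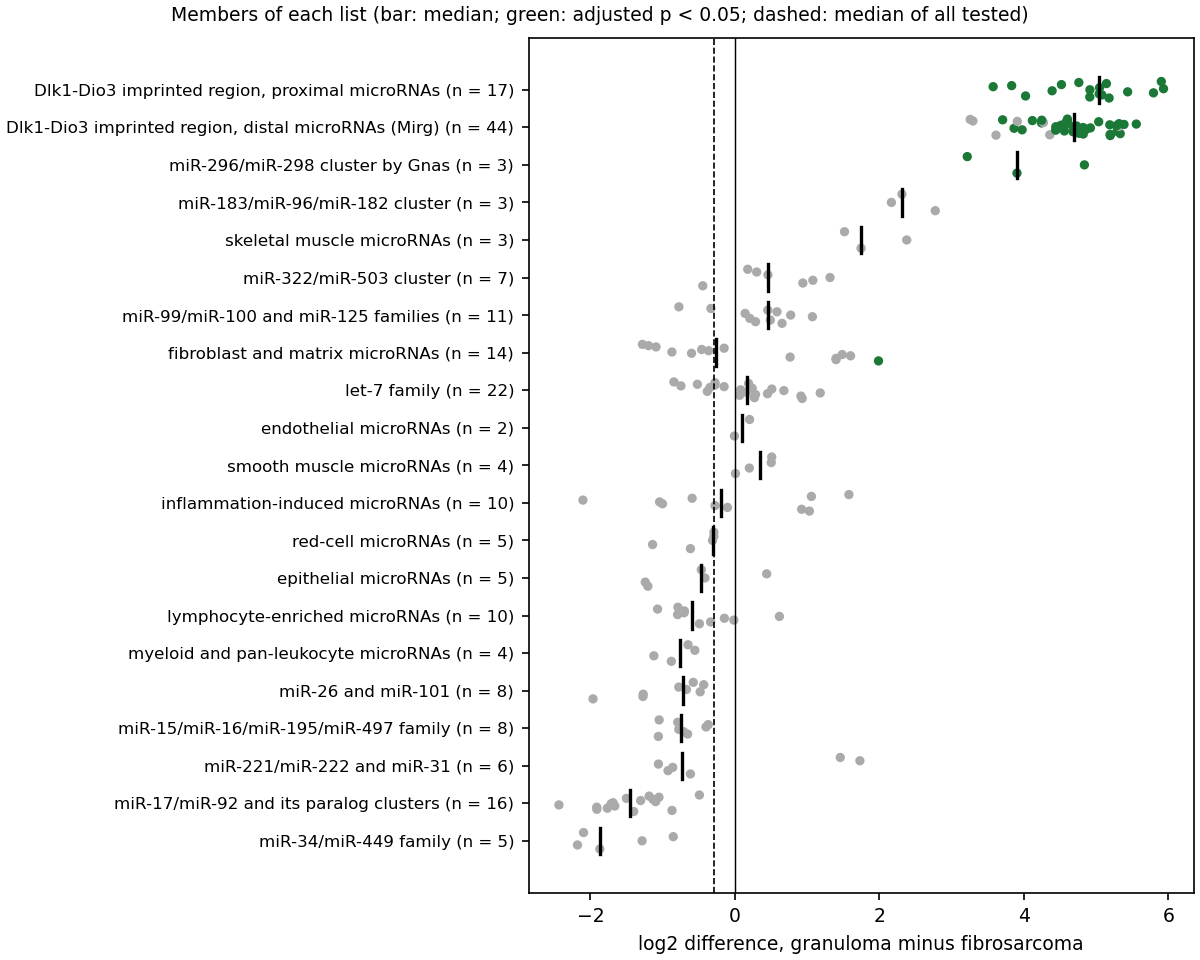
Each row gives the log2 differences of the tested members of 1 list, with a bar at the median; green points passed the test and the dashed line is the median of all tested microRNAs, -0.29. The *Dlk1*-*Dio3* lists and miR-296 and miR-298 stand apart on the right, with medians of 5.04, 4.70 and 3.91, and the miR-17 and miR-34 lists are farthest to the left, at -1.45 and -1.87.

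Of the 31 lists of microRNAs examined, 27 held no called member, among them all lists of cell types other than fibroblasts. Outside the *Dlk1*-*Dio3* region and miR-296 and miR-298, only 1 of 337 tested microRNAs was called. A list without a call is thus near the share of all others, and says little about cell types. The myeloid and pan-leukocyte list took 0.774% and 0.638% of the reads in granulomas Sp600 and Sp976 and 0.786% and 2.35% in fibrosarcomas Sp2230 and Sp2240, and its 4 tested members had a median of -0.76. MiR-223-3p, a microRNA of neutrophils and macrophages, stood at 14629 and 8627 against 5597 and 55348 (difference -0.65, adjusted p = 0.758), so that the fibrosarcomas lay on both sides of the granulomas. MiR-142a-5p, found in all blood-derived cells, stood at 16807 and 17572 against 25440 and 39296 (difference -0.88, adjusted p = 0.330). The lymphocyte list took 4.23% and 4.03% against 4.19% and 6.70%, with 9 of 10 tested members negative and a median of -0.59. All tested microRNAs outside the *Dlk1*-*Dio3* region had a median of -0.44. The inflammation-induced list took 0.332% and 1.07% against 0.813% and 1.21%, with a median of -0.19. Fibrosarcoma Sp2240 had the highest share of each of these lists.

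The shares of the red-cell, endothelial, smooth muscle, epithelial and neural lists overlapped between the lesion types. The red-cell list took 1.71% and 0.379% of the reads in the granulomas and 0.639% and 1.64% in the fibrosarcomas, the endothelial list 0.621% and 0.490% against 0.395% and 0.743%, and the smooth muscle list 2.53% and 1.35% against 2.26% and 1.17%. The epithelial list took at most 0.0136% in any lesion, and 2 of its 13 names had no read in the lesions. The neural list took 0.806% and 0.0858% against 0.186% and 1.94%, a sum of 35964 and 3843 normalized counts against 8072 and 85582. MiR-9-5p stood at 32422 and 1345 against 5173 and 77488, so it made up most of the list in Sp600, Sp2230 and Sp2240 but not in Sp976. The liver and endocrine list was higher in both fibrosarcomas, at 0.0109% and 0.00656% against 0.0137% and 0.0434%, with 3 tested members.

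Of the microRNAs that lead the lesions, none of the 10 most abundant passed the test, beside 1 of 337 outside the *Dlk1*-*Dio3* region and miR-296 and miR-298. MiR-21a-5p, known from fibrosis and from tumors, was the most abundant, at 376740 and 400220 normalized counts in the granulomas and 592873 and 583878 in the fibrosarcomas (difference -0.60, standard error 0.31, limma's adjusted p = 0.326), against 25459 to 75633 in the UIS. The types did not overlap here, but the difference was small beside those of the imprinted regions. MiR-22-3p was nearly equal, at 342412 and 302943 against 270016 and 343454 (difference 0.08, adjusted p = 0.887). Of the growth-related lists, let-7, with 22 tested members, had a median of 0.17, and miR-99/miR-100 with miR-125 a median of 0.46 over 11 members. MiR-125b-5p stood at 82966 and 91914 against 41886 and 41080 (difference 1.07, adjusted p = 0.162). MiR-210-3p, the main microRNA of hypoxia, stood at 1686 and 1133 against 3020 and 2827 (difference -1.08, adjusted p = 0.326).

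The miR-183 cluster differed more between animals than between lesion types. MiR-182-5p stood at 1140 normalized counts in granuloma Sp600 and 27525 in granuloma Sp976, and at 1986 and 336 in the fibrosarcomas (difference 2.77, standard error 1.59, limma's adjusted p = 0.379). MiR-96-5p followed it, at 15 and 214 against 25 and 4.34 (difference 2.31, adjusted p = 0.411). Granuloma Sp976 alone was high, and the other granuloma lay between the fibrosarcomas in both. The study names miR-182, miR-96, miR-223 and miR-296 without their arms. It names them for patterns opposite to their targets *Foxo1* or *Cdkn1a* in comparisons of UIS with IS. The comparison of lesion with lesion here is a different one. Of miR-182-5p, miR-96-5p, miR-223-3p and both arms of miR-296, only the latter 2 passed the test between these lesions, while DESeq2 also called miR-182-5p (adjusted p = 0.0105).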

How the data were processed

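The authors trimmed adaptors and mapped small RNA reads with mirDeep, whose version and settings are not given in the sources used here; the submitters' processing notes name GRCm38, TopHat 1.4.1, HTSeq and DESeq. They deposited a signal per microRNA and library, reads divided by a size factor: 100% of values were whole multiples of 1 read's value within 0.01 read, so reads were recovered. The *Spalax* table also holds 5 columns of other samples, which were not used. Replicate libraries differed far beyond sampling noise (chi-square divided by its degrees of freedom: 585.8 or more).

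The 4 lesion libraries were fitted with limma 3.58.1 (R 4.3.3) on log2(value + 1), with a trend in the spread, a minimum value of 10 in 2 libraries and a Benjamini-Hochberg threshold of 0.05. The p-values rest on the spread between 2 animals of a type, which limma drew towards the trend over all tested microRNAs (prior degrees of freedom 4.12). They are thus not a measure of the spread between animals of a single microRNA alone. Positions and hairpins are GENCODE M21's, folded with RNAfold 2.7.2, and *Spalax* coordinates were not used. Alternatives used edgeR 4.0.16, DESeq2 1.42.0, other scalings, filters, pseudocounts of 0.1 and 10, the 4 UIS libraries in the fit, and leaving out each library; counting names with identical values once, and comparing lesions with the UIS by share of reads, were chosen after seeing the data. Reads have no molecular identifiers, so the floor of 3 reads covers counting error only.

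Members and lists were chosen with earlier results of these data known. MicroRNAs to be named were drawn by a rule, and the text describes those of them that bear on a group it gives: the 12 largest differences in each direction, filled up by p where fewer passed; the 10 most abundant; 4 that the study names, with arms chosen here; and each list's most abundant member and largest difference. Others, such as miR-381-3p, miR-379-5p, miR-431-3p, miR-214-3p and the 7 and 2 exceptions of the region, were named after their values were seen.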

Additional observations from a re-analysis of the deposited data

How the results depend on the processing

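The count of 58 calls stayed between 41 and 84 under other scalings, filters, pseudocounts, tests and the fit of 8 libraries, where the fit of 8 libraries gave 84 (69 higher in granuloma and 15 higher in fibrosarcoma), and it ranged from 0 to 37 when 1 lesion was left out, fewer samples by construction. Under every alternative all tested microRNAs of the *Dlk1*-*Dio3* region were higher in granuloma, except without a filter, where 83 of 85 were. Without granuloma Sp600 or without granuloma Sp976, 32 of the 61 were tested, since the others no longer reached 10 in 2 lesions. All 58 were also called with the size factors of the 4 lesions, edgeR, DESeq2 and the 8 libraries. MiR-199a-5p passed under 8 of 14 alternatives and was not called without a filter (adjusted p = 0.0594), where miR-296-5p also missed the threshold (adjusted p = 0.0525, passed under 10 of 14), and miR-298-5p passed under 11 of 14. MiR-431-3p missed it without a filter (adjusted p = 0.0824) and with both other pseudocounts (0.0581 and 0.0686). The direction turned with edgeR and DESeq2 for miR-155-5p (0.60 and 0.37), miR-224-5p (0.77 and 0.65) and miR-452-5p (0.25 and 0.14), none of them called, and the cause was not tested. With 1 lesion left out, the log2 difference ranged from -0.31 to 3.81 for miR-133a-3p, -2.32 to 1.14 for miR-155-5p, -0.093 to 0.25 for miR-22-3p, -2.30 to 1.01 for miR-223-3p, -1.96 to 1.51 for miR-224-5p, -3.49 to 1.06 for miR-452-5p and -3.89 to 0.70 for miR-9-5p, so their directions rest on single animals. No paired analysis was possible because the granulomas and fibrosarcomas came from different animals, whose labels share no replicate number. The deepest lesion library had 7991923 reads and the shallowest 2034574, so 3 reads, the floor, are 3.75e-05% to 0.000147% of a library.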

Other observations

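Some abundant microRNAs outside the imprinted regions differed more between 2 animals of a lesion type than between the types. MiR-224-5p and miR-452-5p, which share an intron of a GABA receptor gene in mouse, were both high in granuloma Sp600, at 5555 and 2034 normalized counts, and low in granuloma Sp976, at 498 and 86.1, with the fibrosarcomas between at 2601 and 1456 for miR-224-5p and 1270 and 751 for miR-452-5p. MiR-155-5p, induced in activated leukocytes, ran the other way, at 819 in granuloma Sp600 and 9006 in granuloma Sp976, with 4270 and 3923 in the fibrosarcomas. The muscle microRNA miR-133a-3p stood at 6896 in granuloma Sp600 and at 395 to 535 in the other 3 lesions, against 4712650 to 5702420 in the UIS. None of these 4 passed the test between the lesion types.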
